A study of Homo sapiens with 2 samples.

Results

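The mitosis and kinetochore genes described here are 40 genes given as a list of symbols, out of 23686 gene symbols in the deposited tables. They were sorted by function into 9 groups. The first were cyclins with CDK1 and its activating phosphatases, spindle and centrosome kinases, the chromosomal passenger complex and the spindle assembly checkpoint. Next came the kinetochore and centromere, and the anaphase genes, those of the anaphase-promoting complex, securin and separase. The last were spindle and chromosome structure, cytokinesis, and the transcription factors of mitotic genes. All 40 were found in the tables and all 40 passed the minimum of 1 CPM (counts per 1000000 reads) in at least one library. Expression was measured by poly(A) RNA sequencing in A427 cells. This line derives from a human lung tumour of the non-small cell type, and its cultures hold floating spheres beside attached cells. There were 2 groups, floating sphere-forming cells and adherent cells, with 1 library each. Both came from the same line, whose genotype is labelled wild type while the series title calls it CTNNB1-mutated, and both were grown in medium with serum and the labels name no agent. With no replicate of either culture, no test across genes was possible and no p-value is given. Intervals below are exact binomial, at 95%, and reflect the counting of reads alone, so variation from culture to culture is not in them.

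Mitosis is driven by cyclin-dependent kinase CDK1 bound to A and B cyclins, and ends when the anaphase-promoting complex, a ubiquitin ligase, marks cyclin B and securin for destruction. Until every kinetochore, the protein plate that links a centromere to spindle fibres, is attached, the spindle assembly checkpoint holds the activator CDC20 back. Transcripts of these genes accumulate together in G2 and M, under MuvB complexes with B-MYB and FOXM1 that act through a short promoter element called CHR and nearby CCAAT boxes bound by NF-Y.

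The libraries held 27148842 gene-assigned reads for floating and 26384670 for adherent cells, and 13131 genes reached the minimum. Levels below are in TPM (transcripts per 1000000, a length-scaled level). Of 5 epithelial markers, EPCAM stood at 582 TPM in floating and 615 TPM in adherent cells, KRT8 at 581 and 327 TPM, KRT18 at 613 and 342 TPM, and CDH1 (E-cadherin) at 13.9 and 18.9 TPM, while KRT19 was near 0 at 1.3 and 0.5 TPM. Of 3 mesenchymal markers, VIM was high at 4850 TPM in floating and 5264 TPM in adherent cells, CDH2 stood at 1.88 and 2.81 TPM and FN1 at 4.85 and 5.70 TPM. Thus vimentin was above every epithelial marker in both libraries, and the 2 keratins KRT8 and KRT18 were higher in floating cells. Among leukocyte markers, the T cell gene CD3E and the myeloid gene LYZ were at 0 reads in both libraries, PTPRC had 121 reads in floating and 159 in adherent cells, and CD68, a lysosomal protein, had 31.5 and 16.9 TPM. Of 3 endothelial markers, VWF had 44 reads in floating and 14 in adherent cells (2.97-fold, with a lower bound of 1.63), PECAM1 had 2 and 0 reads, and CDH5 had 0 in both. The 3 erythroid markers together had 1 read in floating and 0 in adherent cells. The part of these differences in the results was not tested. In bulk RNA a larger share of cells in mitosis and more transcript per cell cannot be told apart.

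Since nearly all members had ratios on one side, promoter sequences were sought for a set of them chosen for roles and not for values. UBE2C, AURKA, BUB3 and FOXM1 of this set have no promoter in the source used, and sequences of the other 6 are shown. They come from the RefSeq table of the build GRCh38.p14, each running from 250 bases before to 50 after the gene start, on the plus strand, 5′ to 3′. Capitals of 6 letters mark the CHR element (the letters TTTGAA, or in a second form the letters TTCGAA, on either strand) and capitals of 5 letters the CCAAT box (these 5 letters on either strand).
CDC20, chr1:43358731-43359030: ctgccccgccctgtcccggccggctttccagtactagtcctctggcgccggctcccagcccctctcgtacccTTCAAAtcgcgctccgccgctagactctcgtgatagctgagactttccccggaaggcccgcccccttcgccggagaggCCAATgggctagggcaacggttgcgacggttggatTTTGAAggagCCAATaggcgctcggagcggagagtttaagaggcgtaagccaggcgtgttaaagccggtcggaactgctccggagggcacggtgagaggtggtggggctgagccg
PLK1, chr16:23678639-23678938: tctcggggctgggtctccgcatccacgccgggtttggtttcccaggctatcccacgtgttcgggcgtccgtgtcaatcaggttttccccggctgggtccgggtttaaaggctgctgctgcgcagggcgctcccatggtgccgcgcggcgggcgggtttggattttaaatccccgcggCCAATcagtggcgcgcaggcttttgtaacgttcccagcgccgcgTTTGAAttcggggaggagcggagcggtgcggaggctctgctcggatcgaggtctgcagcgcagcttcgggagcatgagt
CCNB2, chr15:59104896-59105195: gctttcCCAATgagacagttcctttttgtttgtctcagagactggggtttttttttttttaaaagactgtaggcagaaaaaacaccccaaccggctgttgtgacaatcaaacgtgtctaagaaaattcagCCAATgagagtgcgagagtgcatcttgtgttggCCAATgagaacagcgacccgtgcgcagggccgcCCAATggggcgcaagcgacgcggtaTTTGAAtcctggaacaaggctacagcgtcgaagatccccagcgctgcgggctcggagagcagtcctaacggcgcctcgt
CENPF, chr1:214602945-214603244: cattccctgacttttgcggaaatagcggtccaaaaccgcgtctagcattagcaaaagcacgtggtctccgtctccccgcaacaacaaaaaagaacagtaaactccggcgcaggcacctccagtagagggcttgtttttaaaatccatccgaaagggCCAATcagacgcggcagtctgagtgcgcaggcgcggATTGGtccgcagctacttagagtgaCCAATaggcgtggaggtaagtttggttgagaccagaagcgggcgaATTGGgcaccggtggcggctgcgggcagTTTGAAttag
CDK1, chr10:60778081-60778380: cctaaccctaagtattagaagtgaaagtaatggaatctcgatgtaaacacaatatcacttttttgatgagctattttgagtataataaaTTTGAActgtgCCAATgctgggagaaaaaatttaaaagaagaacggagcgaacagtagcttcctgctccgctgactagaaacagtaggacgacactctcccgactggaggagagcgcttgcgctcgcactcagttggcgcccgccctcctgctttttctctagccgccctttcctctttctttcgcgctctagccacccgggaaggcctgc
CCNB1, chr5:69166900-69167199: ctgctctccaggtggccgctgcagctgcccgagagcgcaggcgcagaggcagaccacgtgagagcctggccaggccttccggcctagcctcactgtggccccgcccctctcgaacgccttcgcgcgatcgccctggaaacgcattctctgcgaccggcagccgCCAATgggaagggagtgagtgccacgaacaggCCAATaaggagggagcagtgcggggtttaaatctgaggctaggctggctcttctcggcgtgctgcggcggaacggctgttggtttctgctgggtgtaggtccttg
In PLK1 and CCNB2 the CHR letters begin 29 bases before the start, with a CCAAT box 73 and 54 bases before it. In CDC20 they begin 65 bases before the start, between CCAAT boxes that begin 100 and 55 bases before it, and lie again on the other strand 178 bases before it. CENPF holds the element at position 41 of the transcribed side. For CDK1 the window shown is the first of 2 in the table. Its CHR letters begin 161 bases before the start, farther from it than the CCAAT box at 150 bases. The window of CCNB1 holds CCAAT boxes 87 and 55 bases before the start but no CHR letters, which says only that these letters are not in this window.

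Of the 40 genes, 33 have a promoter in that table. The CHR letters were in a window of 25 of the 33 (75.8%), against 19.5% of 27305 genes with a promoter and 15.2% of the 9595 genes tested that have one. The CCAAT box was in 27 of 33 (81.8%), against 39.7% of all and 43.4% of genes tested. The E2F site, searched on either strand as the letters TTGGCGC, as the form with TTCCCGC and as the form with TTCGCGC, was in 9 of 33 (27.3%), against 13.1% of all and 22.1% of genes tested. In the narrower window from 100 bases before to 50 after the start it was in 4 of 33 (12.1%), against 12.2% of genes tested. Of the 26 replication and G1/S genes with a promoter, 3 held CHR letters (11.5%), 16 the CCAAT box (61.5%) and 21 E2F letters (80.8%). Of 110 other mitotic genes, described further below, 96 have a promoter. The 110 include 11 subunits of the MuvB and DREAM complexes, which act at mitotic promoters. Of these 96, 51 held CHR letters (53.1%), 57 the CCAAT box (59.4%) and 38 E2F letters (39.6%). Some genes have several windows, so the shares were also taken over the first window listed per gene: CHR letters were then in 69.7% of the members and 16.6% of all genes. Both CHR and CCAAT letters were in the first window of 19 members (57.6%), against 6.58% of all. In the narrower window, CHR letters were in 23 of 33 members (69.7%), against 9.09% of all genes, 6.77% of genes tested and 0 of the 26 replication genes. Of the 96 other mitotic genes, 42 held them there (43.75%). A match of letters is a description and not evidence of a bound site.

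**Figure D1:**
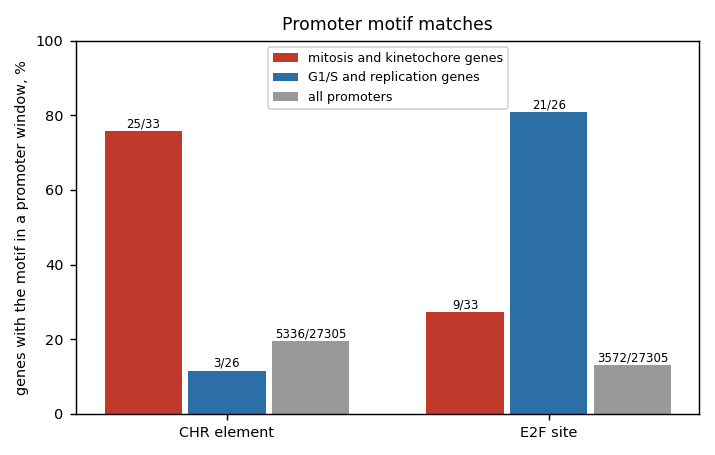
Share of genes, in percent, with the CHR element or the E2F site in a promoter window, for the mitosis and kinetochore genes, the G1/S and DNA replication genes and all genes with a promoter, with the number of genes over each bar. CHR matches were in 25 of 33 mitosis and kinetochore genes and E2F matches in 21 of 26 replication genes.

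Within the members, the presence of the CHR letters did not go with a larger difference between floating and adherent cells. The 25 with the letters had a median log2 ratio of 0.27 and the others with a promoter had a median of 0.34. Those without were CCNA2, CCNB1, NEK2, AURKB, SPC24, CENPE, PTTG1 and MYBL2. Over all genes tested, the median log2 ratio was 0.01 with the letters and -0.0038 without. The 96 other mitotic genes with a promoter went the other way from the members, with medians of 0.15 with the letters and 0.08 without. In the narrower window these were 0.17 and 0.09. None of these differences was tested.

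Mitosis and kinetochore genes as a whole were slightly more abundant in floating cells. They held 0.704% of the reads in floating and 0.576% in adherent cells, and their summed level was 5545 TPM in floating and 4569 TPM in adherent cells. The log2 ratio of floating over adherent, on reads scaled between the libraries, was above 0 for 38 of 40, with a median of 0.29 (1.23-fold) against -0.0048 over all genes tested. The counting interval lay above 0 for 36 of 40 and below 0 for none, while among all genes tested 25.5% had an interval above 0 and 25.6% one below 0. A log2 ratio of at least 0.32, with an interval above 0, was reached by 19 of 40 against 9.18% of all genes tested, and none was lower by as much, against 9.37%. No member was 2-fold apart, a difference that 1.28% of genes reached upwards and 0.754% downwards, 2.03% in all. The ratio of 18 members lay above the 90th percentile of all genes tested (log2 0.33) and that of 33 above the 75th (log2 0.16). The differences were therefore small, with log2 ratios from -0.04 (MYBL2) to 0.62 (CDC20). The interquartile range was 0.20 across the members and 0.32 across all genes tested, which include genes with fewer reads than any member.

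**Figure D2:**
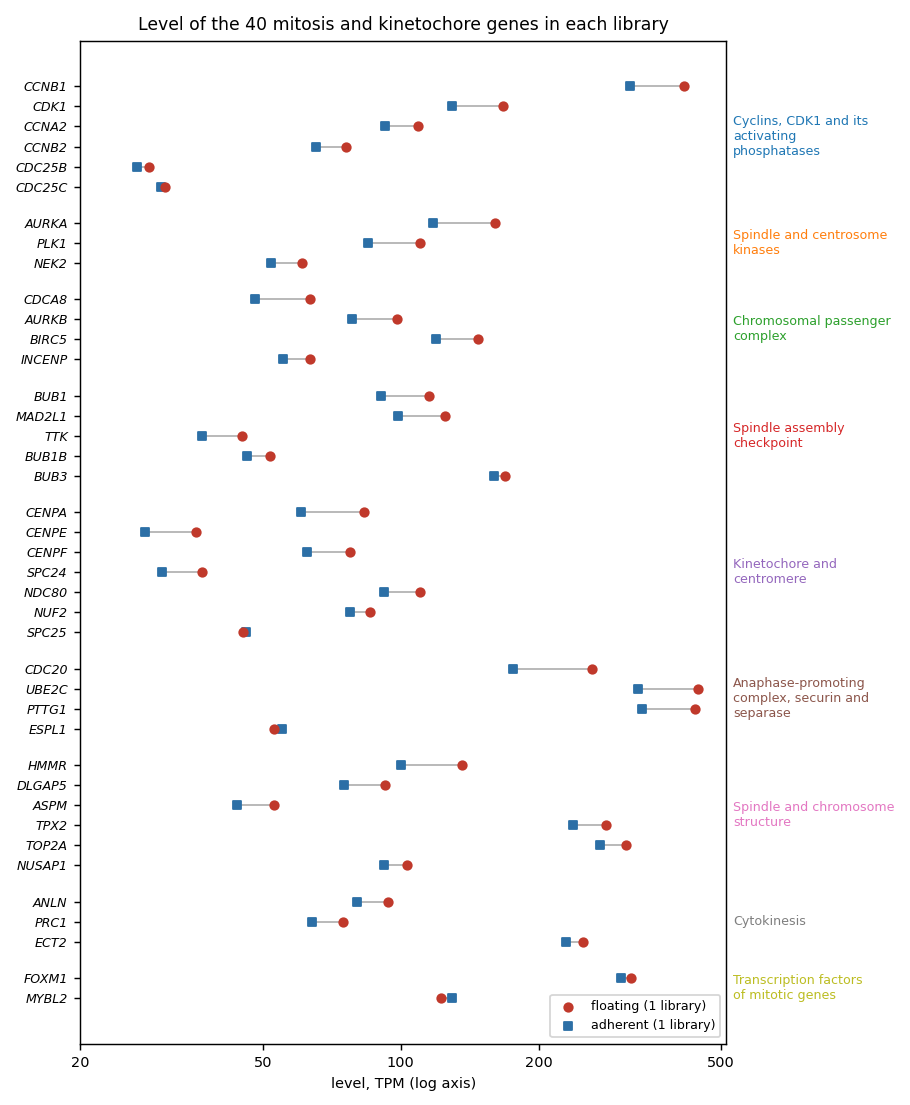
Level in TPM (log axis) of each of the 40 genes in the floating library (red circle) and the adherent library (blue square), grouped by function and with 1 library each. The floating value lies to the right of the adherent one for all genes but SPC25, ESPL1 and MYBL2.

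The most abundant members by length-scaled level were UBE2C at 446 TPM in floating and 329 TPM in adherent cells, PTTG1 at 439 and 336 TPM, and CCNB1 at 415 and 317 TPM. FOXM1 and TOP2A came next in both libraries. The least abundant in both was CDC25B, at 28.3 TPM in floating and 26.6 TPM in adherent cells. The reads behind a gene ran from 219 in floating and 169 in adherent cells for SPC24 to 23105 and 19030 for TOP2A, so the interval of SPC24 is the widest. As a description over the 40 genes, the ratio had a Spearman correlation of 0.31 with the floating level and of -0.31 with effective length, against 0.18 and -0.18 over all genes tested. The genes share both libraries, and level and ratio share the floating reads.

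Entry into mitosis needs CDK1, its cyclins and the CDC25 phosphatases that remove its inhibitory phosphates. CCNB1, the main mitotic cyclin, had 415 TPM in floating and 317 TPM in adherent cells, a 1.35-fold difference (interval 1.31 to 1.39). CDK1 had 167 TPM in floating and 129.6 TPM in adherent cells and was 1.33-fold higher (1.26 to 1.39). Cyclin A2, which also acts in S phase, was less far apart, with CCNA2 at 108.9 and 92.5 TPM and 1.21-fold higher (1.16 to 1.27). CCNB2, the Golgi-associated B cyclin, had 76.1 TPM in floating and 65.3 TPM in adherent cells (1.20-fold, 1.11 to 1.30). The phosphatases were nearly level: CDC25B had 28.3 and 26.6 TPM (log2 ratio 0.13, interval 0.013 to 0.24), and CDC25C had 30.6 and 30.05 TPM, with an interval that included 0 (log2 ratio 0.09, -0.06 to 0.24). The interval of CDC25B also included 0 with upper-quartile scaling (log2 ratio 0.11). The group of 6 had 5 intervals above 0, against 25.5% of all genes tested, and a median log2 ratio of 0.27.

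Ratios of genes within a library do not depend on the scaling between libraries, and 18 such pairs were compared. They can depend on gene length, and with a trend over length removed 4 of the 18 changed in whether the interval included 1. Reads of CCNB1 per read of CCNB2 were 7.98 in floating and 7.10 in adherent cells, so cyclin B1 gained on cyclin B2 1.12-fold (exact interval 1.03 to 1.22). CCNB1 also gained on CCNA2, 1.11-fold (1.05 to 1.18). The widest of the 18 was CDK1 over WEE1, the kinase that inhibits it, with 2.38 reads per read in floating and 1.56 in adherent cells, a 1.53-fold difference (1.40 to 1.66). For CDC25B over CDC25C the interval included 1 (1.03-fold, 0.898 to 1.17). Inhibitors of CDK1 in G2 went both ways, as did all genes tested. Of 7 measured, WEE1 included, 4 had intervals above 0 and 2 below, against 25.5% and 25.6% of all genes tested. WEE1 was 1.15-fold lower (1.08 to 1.23) and its relative PKMYT1 1.13-fold lower (1.02 to 1.26), while GADD45A, a stress-induced inhibitor, was 2.24-fold higher (1.90 to 2.65) and CDKN1A, which encodes p21, 1.43-fold higher (1.34 to 1.51).

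The spindle and centrosome kinases were all higher. AURKA, which matures centrosomes and builds the spindle, had 161 TPM in floating and 118 TPM in adherent cells (1.40-fold, interval 1.34 to 1.47). PLK1, a kinase of mitotic entry, spindle and cytokinesis, had 110.2 and 84.8 TPM (1.34-fold, 1.27 to 1.42). NEK2, which separates centrosomes, had 60.8 and 52.2 TPM and was 1.19-fold higher (1.10 to 1.28). The group median was 0.42, and 0.34 without AURKA, whose estimated reads have decimals and so are shared with other sequences. TPX2, the spindle factor that activates AURKA, was higher by less than its partner. It had 280.5 TPM in floating and 238 TPM in adherent cells (1.21-fold, 1.18 to 1.246), and its reads per read of AURKA were 3.01 in floating and 3.47 in adherent cells. That was the only one of the 18 pairs with an interval below 1 (0.867-fold, 0.822 to 0.915).

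All 4 subunits of the chromosomal passenger complex, which corrects faulty attachments and later steers cytokinesis, were higher. CDCA8 (borealin) had 63.4 TPM in floating and 48.2 TPM in adherent cells (1.35-fold, interval 1.26 to 1.45). The kinase of the complex, AURKB, had 98.0 and 78.4 TPM (1.29-fold, 1.19 to 1.40). BIRC5 (survivin), which docks the complex on centromeres, had 147 and 119 TPM (1.27-fold, 1.22 to 1.33). The scaffold INCENP was nearest to level, with 63.5 TPM in floating and 55.3 TPM in adherent cells (1.18-fold, 1.13 to 1.247). BIRC5 per INCENP read was 1.07-fold higher in floating cells (1.00 to 1.15), with a lower bound of 1.004, and with the length trend removed its interval included 1 (1.04-fold, 0.969 to 1.11). Between the sister kinases, AURKA over AURKB differed 1.09-fold, with an interval that included 1 (0.99 to 1.19), or 1.12-fold (1.02 to 1.23) with the length trend removed.

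In the spindle assembly checkpoint all 5 genes had intervals above 0, against 25.5% of all genes tested. Their ratios ranged from 1.07-fold to 1.31-fold. BUB1, a kinase at unattached kinetochores, had 115.5 TPM in floating and 90.6 TPM in adherent cells (1.31-fold, interval 1.26 to 1.37). MAD2L1, which binds and restrains CDC20, had 125 and 98.9 TPM (1.30-fold, 1.22 to 1.39), and the kinase TTK 45.2 and 36.9 TPM (1.26-fold, 1.17 to 1.36). BUB1B (BubR1), the other inhibitor of CDC20, had 51.9 and 46.2 TPM and was 1.16-fold higher (1.09 to 1.23). BUB3, the partner of both BUB1 and BUB1B, had 169 and 160.2 TPM and was only 1.07-fold higher (1.02 to 1.11). Its ratio lay at percentile 66.6 of all genes tested. BUB3 was the most abundant gene of the group in both libraries and the one that differed least. Per read of BUB3, MAD2L1 had 0.429 reads in floating and 0.352 in adherent cells, a 1.22-fold difference (1.13 to 1.32), and BUB1 gained on BUB1B 1.13-fold (1.05 to 1.22).

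Kinetochore and centromere genes had the widest spread of any group but the anaphase genes, with log2 ratios from 0.03 to 0.50. CENPA, the histone H3 variant that marks centromeres, had 83.2 TPM in floating and 60.5 TPM in adherent cells and was 1.41-fold higher (interval 1.30 to 1.53). CENPE, a kinesin that moves chromosomes to the spindle equator, had 35.8 and 27.7 TPM (1.33-fold, 1.27 to 1.40). CENPF, a large outer kinetochore protein, had 77.5 and 62.4 TPM (1.28-fold, 1.24 to 1.32). The NDC80 complex, which grips microtubules, has 4 subunits. NDC80 had 110.4 TPM in floating and 91.98 TPM in adherent cells (1.24-fold, 1.17 to 1.31), and its partner NUF2 85.9 and 77.5 TPM (1.14-fold, 1.07 to 1.22). SPC24 had 36.8 and 30.15 TPM, with an interval of 1.02 to 1.54 around 1.252-fold, and SPC25 45.4 and 45.9 TPM, with an interval that included no difference (1.02-fold, 0.914 to 1.13). The ratio of SPC25 was -0.02 on the log2 scale when taken from TPM. With a trend over gene length removed, SPC24 had a log2 ratio of 0.19 and an interval that included 0. Neither NDC80 over NUF2 (1.09-fold, 0.996 to 1.18) nor SPC24 over SPC25 (1.23-fold, 0.974 to 1.56) had an interval that excluded 1, while the interval of NDC80 lay above that of SPC25. With the length trend removed, the interval of NDC80 over NUF2 was just above 1, with a lower bound of 1.001. CENPA gained 1.20-fold on its chaperone HJURP (1.08 to 1.34), while CENPE over CENPF was 1.04-fold with an interval that included 1 (0.983 to 1.10).

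**Figure D3:**
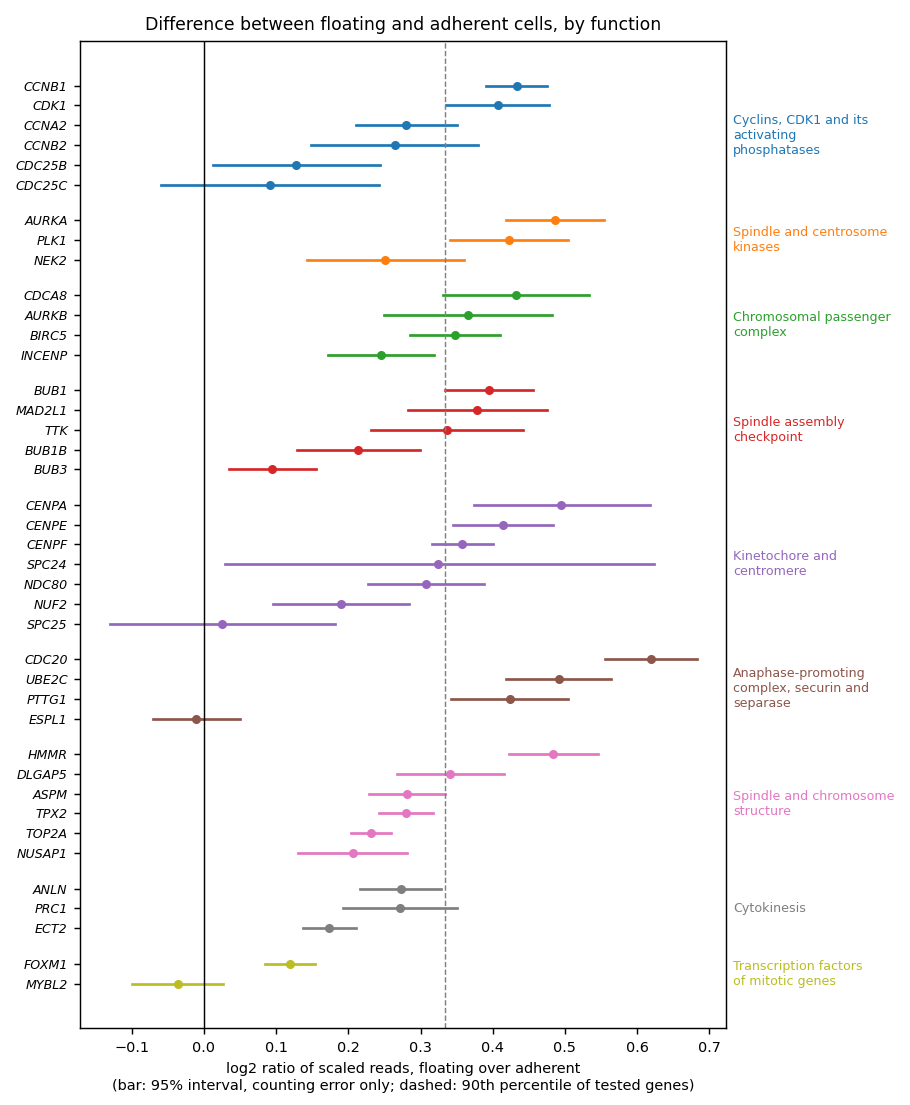
Log2 ratio of scaled reads, floating over adherent, for each of the 40 genes by function, with bars for the 95% counting interval, a line at 0 and a dashed line at the 90th percentile of all genes tested (0.33). CDC20 lies farthest to the right at 0.62, and the intervals of CDC25C, SPC25, ESPL1 and MYBL2 cross 0.

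The largest ratio of the 40 was among the anaphase genes, those of the anaphase-promoting complex, securin and separase. CDC20, which activates the anaphase-promoting complex, had 262 TPM in floating and 176 TPM in adherent cells, a 1.54-fold difference (interval 1.47 to 1.61), at percentile 96.8 of all genes tested. Its interval overlapped those of UBE2C, CENPA and SPC24 and lay above those of the other members. UBE2C, the ubiquitin-conjugating enzyme of the complex, had 446 and 329 TPM (1.41-fold, 1.34 to 1.48). PTTG1 (securin), a substrate that inhibits separase, had 439 and 336 TPM (1.34-fold, 1.27 to 1.42). Separase itself, the protease that cuts cohesin, was level: ESPL1 had 52.95 TPM in floating and 55.03 TPM in adherent cells, with a log2 ratio of -0.01 (-0.07 to 0.05). Securin therefore gained on its target, with 0.647 reads of PTTG1 per read of ESPL1 in floating and 0.479 in adherent cells, a 1.35-fold difference (1.26 to 1.45), or 1.19-fold (1.11 to 1.28) with a trend over gene length removed. Estimated reads of PTTG1 have decimals and so are shared with other sequences. With that trend removed the log2 ratios were 0.36 for UBE2C, 0.29 for PTTG1 and 0.56 for CDC20, in place of 0.49, 0.42 and 0.62.

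CDC20 also gained on other regulators of the same complex. Per read of MAD2L1, its checkpoint inhibitor, there were 2.50 reads of CDC20 in floating and 2.12 in adherent cells (1.18-fold, 1.09 to 1.28). Per read of FZR1 (CDH1), the activator used after anaphase and in G1, there were 4.84 and 3.43 (1.41-fold, 1.28 to 1.56). FZR1 itself had 23.4 TPM in floating and 22.1 TPM in adherent cells, with an interval that included no difference. UBE2S, the enzyme that extends the ubiquitin chains begun by UBE2C, had 508 and 402 TPM and was 1.30-fold higher (1.254 to 1.35), with UBE2C gaining on it 1.08-fold (1.01 to 1.15), or 1.06-fold (0.997 to 1.13) with the length trend removed. Of 15 other subunits and regulators of the complex measured, UBE2S included, 4 had intervals above 0 and none below, beside 25.5% above and 25.6% below over all genes tested, with a median log2 ratio of 0.07. Among the core subunits, CDC27 was 1.11-fold higher (1.07 to 1.15).

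**Figure D4:**
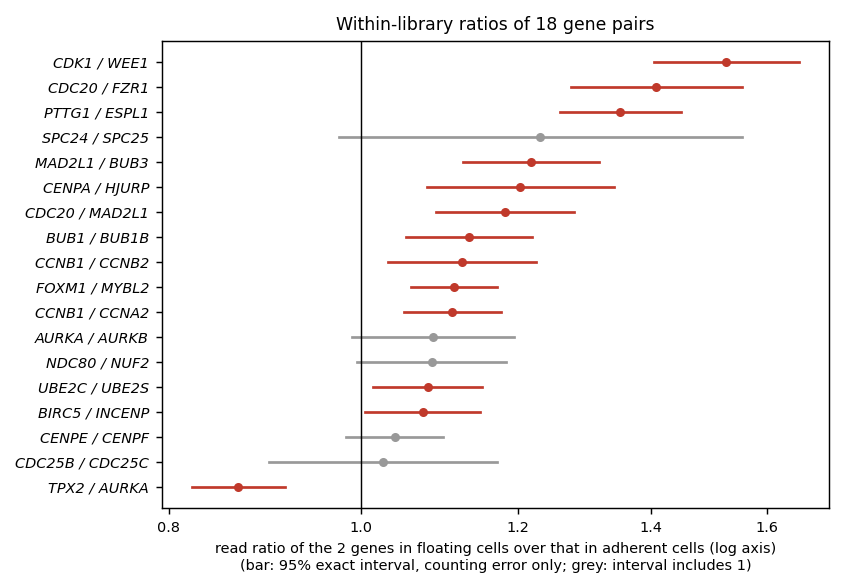
Read ratio of 2 genes in floating cells over the same ratio in adherent cells (log axis) for 18 pairs, with 95% exact intervals for counting error. CDK1 over WEE1 is highest at 1.53, TPX2 over AURKA is the only pair below 1 with an interval that excludes it, and grey pairs have intervals that include 1.

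All 6 genes of spindle and chromosome structure had intervals above 0, against 25.5% of all genes tested. Their median log2 ratio was 0.28. HMMR, a spindle pole protein and hyaluronan receptor, had 136 TPM in floating and 100.1 TPM in adherent cells (1.40-fold, interval 1.34 to 1.46). DLGAP5 (HURP), which stabilizes fibres near chromosomes, had 92.5 and 75.4 TPM (1.27-fold, 1.20 to 1.33). ASPM, which focuses spindle poles, had 52.9 and 44.0 TPM (1.21-fold, 1.17 to 1.26). The bundling protein NUSAP1 had 102.97 TPM in floating and 91.96 TPM in adherent cells (1.15-fold, 1.09 to 1.22). TOP2A, the topoisomerase that untangles sister chromatids, had 310.1 and 273 TPM and a narrow interval (1.17-fold, 1.15 to 1.20). The interval of HMMR lay above those of the other 5 genes of the group.

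All 3 cytokinesis genes had intervals above 0, against 25.5% of all genes tested. ANLN (anillin), a scaffold of the contractile ring, had 93.95 TPM in floating and 80.3 TPM in adherent cells (1.21-fold, interval 1.16 to 1.26). PRC1, which bundles the central spindle, had 75 and 64.2 TPM (1.21-fold, 1.14 to 1.27). ECT2, the exchange factor that switches on RhoA at the cell equator, had 249.96 and 229 TPM and was 1.13-fold higher (1.10 to 1.16). None of the 3 reached a log2 ratio of 0.32.

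The transcription factors of mitotic genes were themselves close to level. FOXM1 had 318 TPM in floating and 302 TPM in adherent cells and was 1.09-fold higher (interval 1.06 to 1.11), with a log2 ratio of 0.12, or 0.07 from TPM. MYBL2 (B-MYB) had 122 and 129 TPM, with a log2 ratio of -0.04 and an interval that included 0 (-0.10 to 0.03). FOXM1 gained 1.11-fold on MYBL2 (1.06 to 1.17). MYBL2 had the lowest ratio of the 40 genes and FOXM1 the lowest but for CDC25C, SPC25, ESPL1, BUB3 and MYBL2. Of 11 subunits of the MuvB and DREAM complexes, which also act at these promoters, 1 had an interval above 0 and 4 below. Over all genes tested the shares were 25.5% and 25.6%. The median of the 11 was -0.06. E2F4 was 1.18-fold higher (1.10 to 1.27), RBBP4 was 1.19-fold lower (1.15 to 1.22) and TFDP2 1.18-fold lower (1.12 to 1.245).

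Compared by group, the median log2 ratio was 0.46 for the anaphase genes, 0.42 for the spindle and centrosome kinases, 0.36 for the passenger complex, 0.34 for the checkpoint, 0.32 for the kinetochore, 0.28 for spindle and chromosome structure, 0.27 for both cytokinesis and the CDK1 group, and 0.04 for the transcription factors. With the length trend removed the order changed: the median was 0.41 for the kinases, 0.33 for the anaphase genes, 0.32 for the checkpoint, the passenger complex and spindle and chromosome structure, 0.30 for the kinetochore and cytokinesis, 0.24 for the CDK1 group and 0.05 for the transcription factors. Ranges within groups overlapped, and with 2 to 7 genes a group, which are not replicates, no difference between groups was tested. Every group but the transcription factors had at least 3 genes with an interval above 0.

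Other mitotic genes were taken from 8 further lists of 110 genes in all. These include the 11 MuvB and DREAM subunits and the 15 subunits and regulators of the anaphase-promoting complex described above. The 11 supplied 1 of the intervals above 0 and 4 of those below 0 in the counts that follow. Of the 110, all passing the minimum, 53 had intervals above 0 and 15 below, against 25.5% and 25.6% of all genes tested. By at least 0.32 (log2), 21 were higher, against 9.18% of all genes tested, and the median was 0.11. Mitotic kinesins had 8 of 12 intervals above 0 and none below, with KIF2C, which depolymerizes microtubules at centromeres, 1.28-fold higher (1.21 to 1.35) and KIF20A, a kinesin of the midzone, 1.27-fold higher (1.21 to 1.33). Other spindle, centrosome and midbody genes had 13 of 15 above 0, led by the spindle protein CKAP2L (1.40-fold, 1.29 to 1.52) and ARHGAP11A (1.29-fold, 1.23 to 1.34). The 1 gene of that list below 0 was KIAA0101, a PCNA-binding factor of DNA synthesis, 1.21-fold lower (1.09 to 1.33).

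Among inner centromere proteins and CENP-A loaders, 11 of 20 had intervals above 0 and 2 below, against 25.5% and 25.6% of all genes tested. ITGB3BP (CENP-R) was 1.47-fold (1.26 to 1.73) and CENPW 1.40-fold higher (1.21 to 1.63), each on under 500 reads a library, while CENPC1 was 1.13-fold lower (1.02 to 1.26) and CENPT 1.13-fold lower, with a bound of 1.003. Of 15 other outer kinetochore and checkpoint genes, 7 were above 0 and 2 below, against the same shares of all genes tested. TRIP13, which remodels MAD2, was 1.35-fold higher (1.30 to 1.41) and the microtubule coupler SKA1 1.28-fold higher (1.19 to 1.38), whereas DSN1, of the MIS12 complex, was 1.12-fold lower (1.05 to 1.20) and KNTC1, of the checkpoint's RZZ complex, 1.07-fold lower (1.02 to 1.12). Among the rings that shape and hold chromosomes, condensin was slightly higher, with a median log2 ratio of 0.11, and cohesin was close to level. Condensin had 5 of 8 intervals above 0 and 1 below. Its NCAPG was 1.21-fold (1.16 to 1.26) and its NCAPH 1.19-fold higher (1.11 to 1.28). NCAPD3 was 1.06-fold lower (1.00 to 1.13), its lower bound being 1.002. Cohesin and its regulators had 4 of 14 above 0 and 5 below, against 25.5% and 25.6% of all genes tested. The median of the 14 was -0.04. The centromeric protectors of cohesin, SGOL2 (1.26-fold, 1.19 to 1.33) and SGOL1 (1.12-fold, 1.02 to 1.22), were higher, and the ring subunit STAG2 (1.20-fold, 1.16 to 1.23) and PDS5B (1.15-fold, 1.07 to 1.24) were lower.

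**Figure D5:**
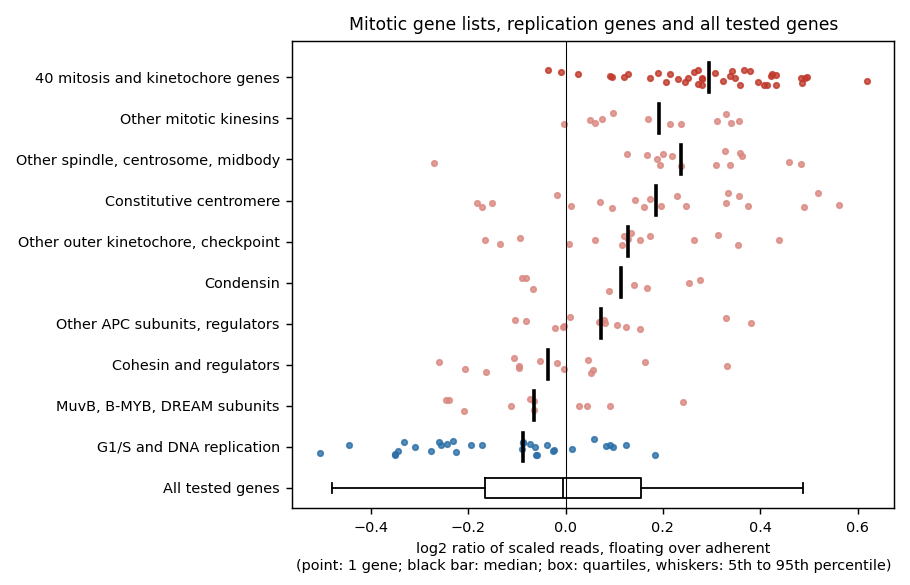
Log2 ratio of scaled reads, floating over adherent, for each tested gene (point) of the 40 mitosis and kinetochore genes, of 8 further mitotic lists and of G1/S and DNA replication genes, with medians as black bars, above a box of all genes tested. The median is 0.29 for the 40 genes, 0.11 for the further mitotic genes pooled, MuvB and DREAM subunits included, and -0.09 for replication genes.

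Of the 32 replication and G1/S genes measured, 3 had intervals above 0 and 19 below, against 25.5% and 25.6% of all genes tested. By at least 0.32 (log2), 6 were lower, against 9.37% of all genes tested, and none higher. The median log2 ratio was -0.09. MCM5, a subunit of the replicative helicase, had 90.2 TPM in floating and 132 TPM in adherent cells (1.42-fold lower, interval 1.35 to 1.49), and the uracil glycosylase UNG had 111 and 155 TPM (1.36-fold lower, 1.29 to 1.43). The few that were higher included the clamp loader subunit RFC5 (1.14-fold, 1.06 to 1.21) and TYMS, thymidylate synthase (1.07-fold, 1.04 to 1.10). The difference between these genes and the mitotic ones was not tested, and the medians describe the 2 libraries alone. Transcripts of the members were less GC-rich than those of the genes tested, with a median GC content of 43.2% against 48.3%, and with a trend over GC content removed their median log2 ratio was 0.29 as before.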

How the data were processed

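Poly(A) RNA of A427 cells was sequenced in 2 libraries, 1 of floating and 1 of adherent cells. The submitters' processing notes name RSEM 1.3.3, STAR 2.5.3a, FastQC 0.11.1 and the build hg19. For annotation, settings and strand, nothing is given in the sources used here. One deposited table holds the authors' estimated counts per gene, not normalized, and the other TPM, which the authors scaled per library. Columns were assigned by name.

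Estimated counts were rounded and scaled by TMM (edgeR 4.0.16, R 4.3.3). The log2 ratio was taken on count + 0.5 per effective library size, for genes of at least 1 CPM in either library. Intervals are Clopper-Pearson intervals given the summed reads of a gene, and for pairs the exact interval of the odds ratio. These intervals cover counting error only, since each group has 1 library. Reads carry no molecular identifiers, so repeated copies of a molecule count as separate reads. With 1 library per group no test was run. The calculation was tested on simulated data.

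The alternatives used upper-quartile scaling, library totals or DESeq2 1.42.0 size factors, log2 of TPM + 0.1, a prior count of 5, no filter, 5 CPM, a trend over effective length or GC content removed in 20 bins (GENCODE v29 transcripts, 92.3% of genes tested), and genes with whole-number estimates. Promoters came from RefSeq (GRCh38.p14), and the first window per gene and the length trend for pairs were added after the data were seen. Members, lists, pairs and the threshold of 0.32 (log2) were chosen with earlier results of these data known. Named were all members, both genes of each pair, and in each further list the 2 genes on each side with the interval bound farthest from 0. Markers of cell types were named by list, and 1 item is not reported here. Other calculations used Python 3.11.15, numpy 2.4.6, scipy 1.17.1 and pandas 2.3.3.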

Additional observations from a re-analysis of the deposited data

How the results depend on the processing

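Under the alternatives run, the median log2 ratio of the 40 genes lay between 0.26 (TPM) and 0.30 (DESeq2 size factors), against 0.29. The count of intervals above 0 was 35 or 36 of 40, or 33 of 37 with whole-number estimates only. The count higher by at least 0.32 (log2) lay between 13 (TPM) and 19, and none passed 2-fold in any. On TPM the median of all genes tested was -0.05. The interval call of 2 members was lost, CDC25B with upper-quartile scaling and SPC24 with the length trend removed, and no interval call was gained. For the 2 transcription factors the median was -0.0036 on TPM, against 0.04, and for the further mitotic genes 0.07 on TPM, against 0.11. The cause was not tested. With the length trend removed from the pairs, an alternative chosen after seeing the data, 1 of 18 ratios left its counting interval, that of PTTG1 over ESPL1 at 1.19. E2F letters were in 4 of 33 members with the window from 100 bases before the start, against 9. This window holds fewer bases. No paired analysis was possible because each group has 1 library. No library could be left out for the same reason, and 169 reads for SPC24 in adherent cells set the widest interval.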
